A study of Mus musculus with 4 samples.

Results

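Isolated CTCF peaks were taken here as autosomal peaks whose summit had no other CTCF summit within 100 kb on either side in mouse heart, and 1577 of 51752 autosomal peaks met this rule. The peaks came from the conservative list of the series, which draws on both pools and keeps peaks with an irreproducible discovery rate (IDR) of up to 0.05, and each distinct interval counted as a single peak. The members were chosen by the positions of the peaks, and passing the IDR threshold decided what counted as a neighbour. All values of the same list are therefore given as descriptions without a test. The remaining 50175 summits, called the other summits, had a median of 7.39 kb to their nearest neighbour, against 154 kb for the isolated ones.

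Chromatin immunoprecipitation with a CTCF antibody, followed by sequencing, was done on heart tissue of adult female B6CASTF1/J mice, an F1 hybrid strain, at 2 months of age. Pool G, which is biological replicate 2, and pool H, which is biological replicate 1, each combined 2 heart biosamples and gave 2 technical libraries. The tissue holds muscle cells, fibroblasts, endothelial cells and immune cells together, and a peak strength in such tissue cannot tell a site bound in fewer cells from a site bound more weakly in all of them. Peak strength is given as the peak caller's signal, a score without a stated unit that grows with read depth, and it is compared only within a list. Read depth is unknown, and the exact binomial 95% intervals in brackets reflect only how many peaks or genes were counted.

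CTCF is a zinc-finger protein that binds a long DNA motif with a direction. It halts the ring-shaped cohesin complex as cohesin extrudes chromatin loops, most efficiently when the motif points towards the arriving complex. Paired motifs that point at each other therefore often mark the ends of a loop, and clusters of CTCF sites are common at the borders of contact domains. A site far from any other is without such nearby partners. The motif was searched as a 12-base core, a set of 32 words, on both strands, with its centre within 100 bp of the summit and at most 1 mismatch unless stated.

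The following sequences from the GRCm38 (mm10) assembly show the best core, in capitals, at isolated summits that the results turn on, each with 9 flanking bases on either side and read 5′ to 3′ on the strand of the core. In order, they open with the strongest member, the next strongest, which carries the word common in soft-masked repeats, a strong member with 2 mismatches, and a strong member with an exact core. The member between Pcmtd1 and Sntg1 is the weakest of all and holds the same 12 letters as the one between Anxa2 and Foxb1. The rest lie at a promoter, in genes over 500 kb, in a coding exon, or farthest from any neighbour.
BC052040 to Meis2, chr2:115855950-115855979, plus strand: ccctgaaggCCAGCAGGGGGCgctctgatg
Ccdc105 to Slc1a6, chr10:78756178-78756207, plus strand: tcgcagaggCCAGAAGAGGGCactgtgaga
Adamts16 to Irx1, chr13:71458568-71458597, plus strand: gcatgtcggCCTGTAGGGGGTgcaagcgct
Anxa2 to Foxb1, chr9:69623501-69623530, plus strand: tggagtcagCCACTAGGGGGCagcattgcc
Pcmtd1 to Sntg1, chr1:8287731-8287760, plus strand: ccatttgtaCCACTAGGGGGCatataccca
Rab32 promoter, chr10:10558271-10558300, minus strand: tgtctaaggCCAGCAGGGGGCgctgtggac
Lsamp intron, chr16:41835955-41835984, minus strand: tctaacccaCCACCAGGTGACagtatttct
Zfhx3 intron, chr8:108574285-108574314, plus strand: accacaaaaACACTAGGGGGCgccatatta
Fam84a coding exon, chr12:14150151-14150180, plus strand: ctagctcggCCACCAGCGGGCggtagcggt
Brinp3 to Pla2g4a, chr1:147223413-147223442, plus strand: ctgaggcagCCACTAGAGGACagtagaaac
Gm10800 to B230118H07Rik, chr2:99237135-99237164, plus strand: agcttctgaACACTAGGGGGCgccctcatt

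Isolated summits had weaker CTCF signals than the other summits, and few of them were very strong. Their median signal was 234 in the conservative list, with the middle 50% of members between 127 and 445. The other summits had a median of 298 and a middle range from 138 to 593. The ratio of medians was 0.786, or -0.35 on the log2 scale. The weak ends of both groups were alike, with a 10th percentile of 94.5 against 95.5, while the 90th percentiles were 594 and 728. Only 40 isolated summits, 2.54% (1.82 to 3.44), were among the strongest 10% of all autosomal summits. The order was reversed on chromosome 11, with medians of 326 at isolated and 300 at other summits, on chromosome 12, with 296 and 274, and at summits whose best core had 3 or more mismatches, with 169 and 156. A low median was not particular to isolated summits, as the 3833 summits up to 1 kb from a neighbour had a median of 237.

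The lower signal was seen in each pool. Read from the pool's own ranked list of candidates at the same position, the isolated summits had a median of 131 in pool G and 102 in pool H, against 168 and 131 for the other summits. When the rule was applied to each pool's own thresholded list, pool G gave 1548 isolated summits with a median of 138 against 162 for the rest, a ratio of 0.846. Pool H gave 1617 with a median of 112 against 137, a ratio of 0.814. The pool G value of a member exceeded its pool H value by 1.26 times at the median, against 1.23 times at the other summits, and 1 of 1576 members with both values departed from the pool ratio by over 2-fold. The conservative list was made from both pools, so the pool values are parts of the same data and not a further replicate.

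**Figure D1:**
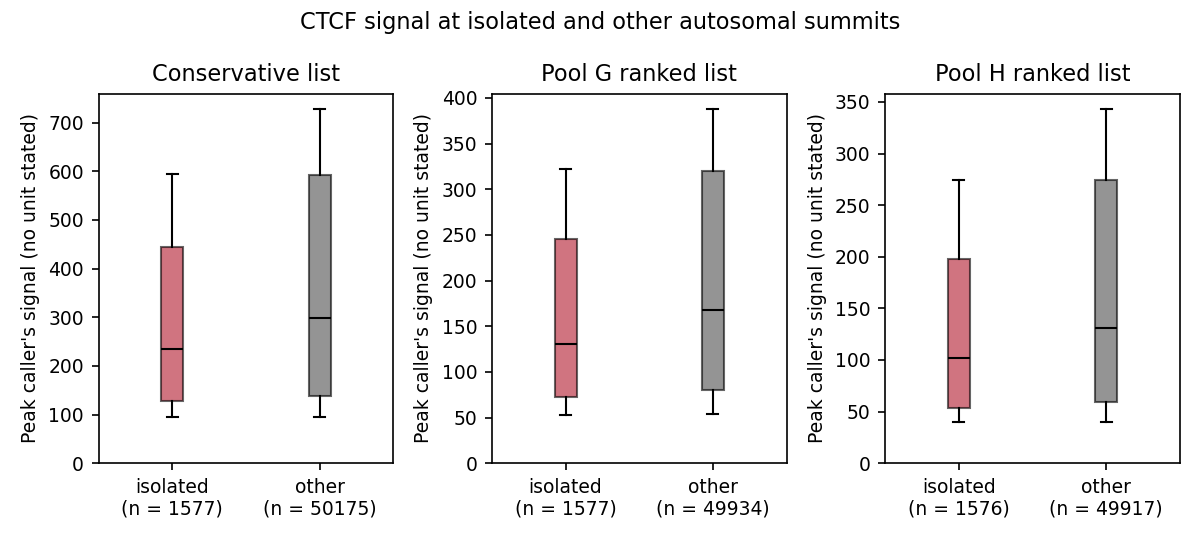
Signal of isolated (red) and other (grey) autosomal summits in the conservative list and, at the same positions, in the ranked lists of pool G and pool H. Boxes span the 25th to 75th percentile with the median as a line and whiskers reach the 10th and 90th percentile, each panel has its own axis, and the isolated medians of 234, 131 and 102 lie below the other medians of 298, 168 and 131.

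The strongest isolated summit lay at chr2:115855637-115856191 between BC052040 and Meis2, a homeobox factor gene active in the developing heart. Its signal was 826, with 443 in pool G and 386 in pool H. It was intergenic, 12892 bp from the start of an annotated Meis2 transcript and 209 kb from the nearest protein-coding start site of that gene, and its nearest neighbour was 106 kb away. Another summit lay 0.325 kb from a Meis2 start site, so the isolated one was not the nearest to that gene. The next strongest was annotated as intronic, 3.12 kb from a start site of Ccdc105, at chr10:78755927-78756415, with 819 in the conservative list, 423 in pool G and 397 in pool H. The member between Adamts16 and Irx1, an Iroquois homeobox gene, reached 814, with 435 and 380 in the pools, although its best core had 2 mismatches. Of the 10 strongest, 7 were intergenic, and their signals ran from 787 to 826.

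The weakest isolated summit, between Pcmtd1 and Sntg1 at chr1:8287545-8287964, had a signal of 61.0, with 35.1 in pool G and 26.5 in pool H, and was in neither pool's own thresholded list. Its exact core, printed above, was identical over 12 bases to that between Anxa2 and Foxb1, whose signal was 797, with 425 in pool G and 372 in pool H. The same 12 core letters were thus found at both ends of the signal range. The letters are those of the reference assembly, and differences between the parental genomes of the hybrid mice were not looked at. The weak copy lay in soft-masked sequence, that is, in an annotated repeat, and the strong copy did not. The core of the strongest member, with a signal of 826, was soft-masked too, as was that near Ccdc105, with 819.

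Most isolated summits were found again in the pools' own lists. In both lists lay 1363 members, 86.4% (84.6 to 88.1), against 84.4% of the other summits. Among the weakest 395 members this share was 49.4% (44.3 to 54.4), and among the middle 787 it was 99.4%. The 74 members found in neither pool list all belonged to the weakest 395. In both pool lists and the conservative list alike, 1198 members, 76.0% (73.8 to 78.1), were isolated.

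A few strong members were absent from a pool's list, most of them with a high signal in that pool. Of the 395 strongest, 6 were missing from the pool G list and 3 from the pool H list. The 6 had ranked signals of 378 to 429 in pool G, far above the median of 131, but scaled IDR scores of 237 to 472, under the 540 that stands for an IDR of 0.05. The member between St3gal1 and Zfat is an example, with a conservative signal of 809, a pool G signal of 429 and a pool G score of 258. Of the 3 missing from the pool H list, those near Ccdc105 and Immp2l had pool H signals of 397 and 336 with scores of 446 and 513. The other, between Unc5cl and Lrfn2 with a conservative signal of 588, had no pool H candidate within 100 bp.

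Isolation held against thresholded peaks and not against all candidates. Within 100 kb, 1377 members, 87.3% (85.6 to 88.9), had at least 1 ranked candidate under the threshold, with a median of 2 candidates per member against 16 at the other summits. The nearest such candidate was 23.3 kb away at the median, against 3.68 kb. Most were weak, and the strongest within 100 kb of a member had a median signal of 40.4. A candidate stronger than the weakest member stood beside 301 members, 19.1% (17.2 to 21.1), and 1 stronger than the member itself beside 17. Beside 9 members stood a candidate at or above the median signal of all summits. The member between Crbn and Lrrn1, with a signal of 467, had a candidate of 866 near it, and a promoter summit of Sgk3 with 64.1 had one of 829. These members counted as isolated since the strong candidate did not pass the IDR threshold. A further 200 members, 12.7%, had no candidate of any strength within 100 kb.

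The distance threshold of 100 kb fell within a continuous range. Just inside it, a summit in an intron of Slc22a22, 100022 bp from its neighbour, had a signal of 196. A pair 100069 bp apart near Fam24a and in the promoter of Acadsb, an acyl-CoA dehydrogenase gene, had signals of 102 and 469. Both of these stood within 100 kb of a candidate of 795 that was under the IDR threshold. Just outside it, a summit between Bmp2 and Hao1 at 99996 bp had a signal of 78.3, and one between Slc8a1 and Pkdcc at 99900 bp had 686. At the far end, 501 members, 31.8%, were over 200 kb from any other summit and 85, 5.39%, over 500 kb.

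The most remote member lay between Brinp3 and Pla2g4a at chr1:147223288-147223552, with 1770.4 kb to its nearest neighbour. Its signal was 231, with 123 in pool G and 109 in pool H. The next, between Gm10800 and B230118H07Rik at chr2:99236987-99237330, stood 1622.2 kb from any other summit and had a signal of 414, with 236 and 175 in the pools. A member between Cntnap5b and Cdh20 was 1406.1 kb from its neighbour, carried an exact core outside soft-masked sequence and had a signal of only 81.9. The remote members thus included both weak and moderately strong summits.

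Isolated summits as a whole carried the CTCF core in a share close to that of other summits. The core lay within 100 bp of 1065 of 1577 isolated summits, 67.5% (65.2 to 69.8), where the background over all autosomal summits was 67.0%. In windows 1 kb away from the same summits it was found in 2.66% (1.93 to 3.58), against 5.94% (5.73 to 6.15) at the other summits. The rule keeps other bound sites out of these windows at isolated summits, so part of this difference follows from the choice of members. The window share was 10.2% for summits up to 1 kb from a neighbour and 2.83% at 50 to 100 kb. Applied to the pool lists, the rule gave core shares of 67.3% in pool G and 68.2% in pool H. From an isolated summit to the centre of its core the median distance was 6.5 bp. Exact cores were less frequent, 29.4% (27.1 to 31.7) against 33.7% (33.3 to 34.1), and cores with 1 mismatch more frequent, 38.2% (35.8 to 40.6) against 33.3%. Within location classes the share was somewhat lower, 69.4% (66.9 to 71.8) against 72.8% (72.4 to 73.2) outside promoters and 69.4% (66.3 to 72.4) against 74.5% (73.8 to 75.1) in intergenic sequence, while isolated summits included fewer promoter summits, where the core is rarer. Only 130 members, 8.24%, had no core with 2 mismatches or fewer.

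The kind of exact core differed between the groups more than its frequency. The word CCAGAAGAGGGC has 48355 copies on the autosomes, 99.6% of them in soft-masked repeats, and 13.6% of the copies lay at a CTCF summit. It made up 78 of 463 exact cores at isolated summits, 16.8% (13.6 to 20.6), against 38.2% (37.5 to 39.0) at the other summits. Cores outside soft-masked sequence were present at 55.0% (52.5 to 57.5) of isolated summits and at 44.9% (44.4 to 45.3) of others. The commonest other words at isolated summits were CCAGCAGAGGGC with 32 summits and CCACTAGATGGC with 29. At the 29 summits the median signal was 511, while the 78 summits with the repeat word had a median of 146.

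The weaker signal of isolated summits was most visible at cores outside repeats. There the median was 300 at 867 isolated summits and 515 at 22506 others, with 165 against 280 in pool G and 134 against 235 in pool H. At exact cores other than the repeat word the medians were 344 and 555. In soft-masked cores they were 159 and 175, and without a core 186 and 203. The repeat word, which goes with weak peaks, was thus scarcer among the isolated summits although their signal was lower.

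Isolated summits shared a surrounding that was poor in genes, guanine and cytosine, and core copies. Within 100 kb, the median GC content was 39.3% against 45.0%, and the soft-masked share was 35.0% against 28.1%. Copies of the core were counted in the same window, leaving out the 1 kb on either side of the summit. Exact cores outside soft-masked sequence numbered 0.465 per member on average, against 2.27 per other summit, and 66.4% (64.0 to 68.7) of members had none at all, against 16.4%. Exact cores within repeats numbered 1.42 against 9.01. The rule keeps bound copies out of these flanks, so part of the difference in copies follows from the choice of members. Runs of unsequenced bases lay within 100 kb of 27 members, and 12 members were the outermost summit of their chromosome, with a neighbour on 1 side only.

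Signal was also lower among summits with flanks of similar GC content in 4 of 5 ranges. In flanks of 34 to 38% GC, the median was 214 at 418 isolated summits and 308 at 622 others. At 38 to 40% it was 230 against 299, at 40 to 42% 238 against 290, and at 44 to 50% 234 against 297. At 42 to 44% the medians were 285 and 286. The core share of isolated summits in the 5 ranges ran from 62.6% to 73.2%, and each of these intervals overlapped that of the other summits.

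Isolated summits lay mostly between genes and seldom at promoters. Of the 1577, 143, or 9.07% (7.70 to 10.6), lay within 1 kb of a transcription start site, where the background over all autosomal summits was 20.2%. Intergenic summits numbered 906, or 57.5% (55.0 to 59.9), where the background was 33.3%. Introns held 511, 32.4% (30.1 to 34.8), against 41.8% of the other summits. Only 2 lay in coding exons, 5 in 3′ UTRs, 10 in other exons and none in 5′ UTRs outside promoters, which allows a share of up to 0.234%. The pool lists gave promoter shares of 9.11% in G and 8.91% in H and intergenic shares of 56.5% and 56.1%.

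**Figure D2:**
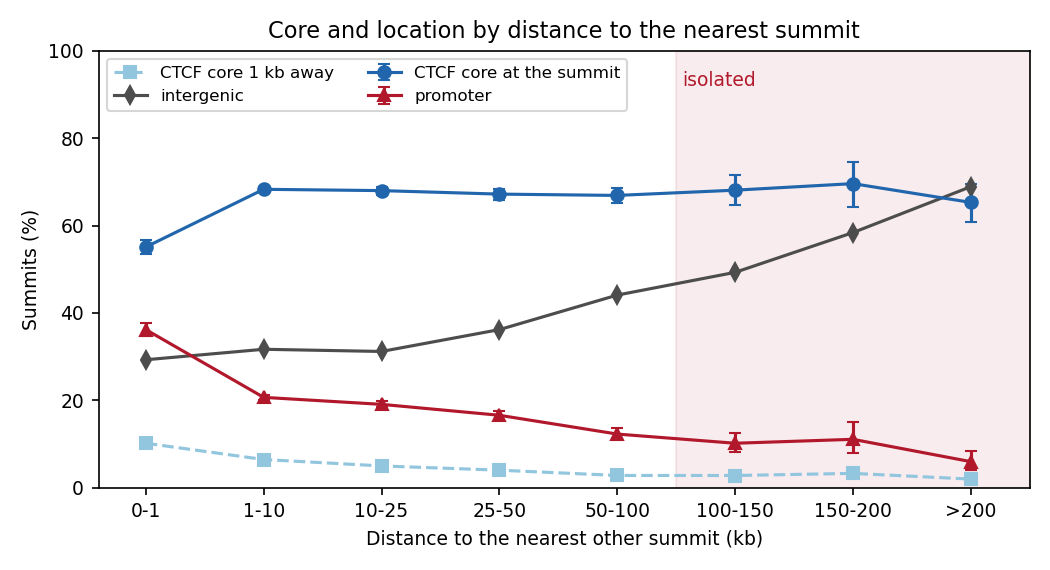
Share of autosomal summits (vertical axis, %) with a core at the summit, with a core in a window 1 kb away, in a promoter or in intergenic sequence, by the distance to the nearest other summit in kb (horizontal axis); bars are exact binomial 95% intervals for the core and promoter shares, and the isolated summits are shaded. The core share was 55.1% under 1 kb and between 65.3% and 69.6% in the other ranges, while the promoter share went from 36.2% under 1 kb to 5.99% beyond 200 kb and the intergenic share from 29.3% to 68.9%.

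Promoter summits were fewer and intergenic ones more frequent at long distances from the nearest neighbour, while the core share was lower only under 1 kb. Summits 1 to 10 kb from a neighbour carried the core in 68.3% and lay in promoters in 20.7%. At 50 to 100 kb, just short of the rule, the shares were 66.9% and 12.3%, at 100 to 150 kb 68.1% and 10.2%, and at 150 to 200 kb 69.6% and 11.1% (7.97 to 15.0). Beyond 200 kb the promoter share was 5.99% (4.08 to 8.44) and the core share 65.3% (60.9 to 69.4). Median signals were 258, 246 and 199 in the 3 ranges of isolated summits, from the nearest to the farthest, against 252 at 50 to 100 kb and 237 under 1 kb. In the 3 ranges of isolated summits the pool G medians were 146, 138 and 112 and the pool H medians 112, 109 and 86.

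Protein-coding genes were far from most isolated summits. No start site of a protein-coding transcript lay within 100 kb of 1053 members, 66.8% (64.4 to 69.1), against 10.5% (10.2 to 10.7) of the other summits. The median distance to the nearest one was 185 kb, against 15.1 kb. Over 500 kb separated 254 members, 16.1%, from any such start site. Isolated summits with no protein-coding start within 100 kb had a median signal of 221, and those with at least 1 had 278.

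Promoter summits among the isolated ones were a mixed group. Of the 143, 70 lay within 1 kb of a protein-coding start site, 49.0% (40.5 to 57.4), against 69.5% of other promoter summits. The core was at 70 of the 143, 49.0% (40.5 to 57.4), against 44.5% (43.6 to 45.5) at other promoters. The strongest lay within Ppp1r9a, which encodes the actin-binding protein neurabin, at chr6:5110359-5110839, 57 bp from an annotated transcript start of the gene and 205 kb from its nearest protein-coding start, with a signal of 792, 423 in pool G and 376 in pool H. Its best core had 2 mismatches. The start of Rab32, a small GTPase gene, carried a summit of 783 with an exact core, printed above, with 408 in pool G and 380 in pool H. The 12 letters of this core are those of the strongest isolated summit of all. A summit of 787 stood 28 bp from the start of Gm47710, a long noncoding RNA gene. Gtf2h2, which encodes a subunit of the transcription factor TFIIH, had a summit of 769 at 86 bp.

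The coding exon summits were those of Fam84a and Hecw1. In Fam84a the signal was 544, with 291 in pool G and 255 in pool H, and the core, printed above, had 1 mismatch. In Hecw1, a ubiquitin ligase gene, it was 144, with 83.1 and 61.8 in the pools. The next summit was 166 kb away from that of Fam84a and 129 kb from that of Hecw1, where the rule itself asks for over 100 kb.

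Isolated summits inside genes lay in very long genes more often than other summits did. Of 471 members within a protein-coding gene, 218 lay in a gene over 500 kb, 46.3% (41.7 to 50.9), against 7.35% (7.05 to 7.66) of other summits within genes. The 471 members shared 344 host genes, with a median host length of 473 kb at isolated and 78.7 kb at other summits. Of 218 genes over 500 kb, 113 held at least 1 isolated summit, 51.8% (45.0 to 58.6), and of 20504 shorter genes 1.16%. Per megabase of gene body, isolated summits numbered 1.16 in the long genes and 0.310 in the shorter ones, against 0.640 over the autosomes. Csmd1, Ctnna3, Lrp1b and Lsamp each held 5.

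The strongest isolated summit in an intron of a gene over 500 kb was in Pard3b, a cell polarity gene, at chr1:61771209-61771646. Its signal was 773, with 420 in pool G and 353 in pool H, and it carried an exact core. In Clstn2, which encodes a calsyntenin of the synapse, the value was 748, with 389 and 357 in the pools. The strongest in Lsamp, a gene of a neural cell adhesion protein 2197.3 kb long, was 731, with 381 and 349. In Zfhx3, a zinc-finger homeobox gene, the summit at chr8:108574077-108574521 had a signal of 676, with 364 and 311. Its core, printed above, has the same 12 letters as the remote summit between Gm10800 and B230118H07Rik. A further summit of 699 counted within Fgfr2 because the annotation gives that gene a span of 2960.9 kb, and it lay 2.73 kb from a start site of Hmx3.

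Of the gene lists examined, neuronal adhesion genes and chemosensory receptor genes had an isolated nearest summit in shares above the background, and the lists of heart genes were too small to show a share below it. A gene was counted as nearest when the summit closest to any of its start sites was isolated, which held for 7.24% of 20722 autosomal protein-coding genes. An isolated summit lay in the gene body of 350 genes, 1.69%. None of 25 sarcomere genes, 19 genes of cardiac energy metabolism, 12 immune markers or 16 housekeeping genes had an isolated summit nearest or in the body. The upper limits on these shares for the nearest summit were 13.7%, 17.6%, 26.5% and 20.6%, all above the background.

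Cardiac transcription factor genes had an isolated nearest summit at 2 of 27, 7.41% (0.910 to 24.3), next to the background of 7.24%. Isl1, a LIM-homeodomain factor of heart progenitors, had one at 2.65 kb, at chr13:116312265-116312421, with a signal of 118, 66.4 in pool G and 50.1 in pool H. Zfpm2, a partner of the GATA factors, had one at 101 kb in its own body, with a signal of 99.1, 52.3 in pool G and 47.1 in pool H. Both of these nearest signals were below the median of isolated summits, 234. Zfpm2 held another isolated summit in its body, at chr15:40977364-40977665, with a signal of 294, above that median. That summit stood within 100 kb of a candidate of 836 under the IDR threshold.

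Of 25 genes of cardiac excitation and calcium handling, 3 had an isolated summit nearest, 12% (2.55 to 31.2), an interval that includes the background of 7.24%. These were Kcnd2, which encodes a channel of the transient outward potassium current, Kcnj3, a subunit of the potassium channel opened by acetylcholine signalling in the atria, and Cacna2d1, an auxiliary subunit of calcium channels. The Kcnd2 summit lay 1.49 kb from its start at chr6:21213843-21214192 and had a signal of 406, with 214 in pool G and 190 in pool H. The next summit was 321 kb away. That of Kcnj3 lay 5.05 kb inside the gene with a signal of 213, 108 in pool G and 102 in pool H. Ryr2, which encodes the channel that releases calcium from the sarcoplasmic reticulum, held an isolated summit of 500 in an intron, with 280 in pool G and 220 in pool H. Another summit lay 0.052 kb from a Ryr2 start site, so the isolated one was not its nearest. With Kcnd2 and Kcnj3, Ryr2 made 3 of the 25 genes with an isolated summit in the body, 12% (2.55 to 31.2), where the background was 1.69%. For Kcnd2 this is another summit, as the one described above was intergenic. Gene length was not matched here. The median length was 162 kb in this list and 17.6 kb over all autosomal protein-coding genes. Ryr2 spans 554 kb, and 51.8% of genes over 500 kb held an isolated summit.

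Markers of other heart cells gave a few cases. Of 12 fibroblast markers, Col3a1 and Fn1 had an isolated nearest summit, 16.7% (2.09 to 48.4), an interval that includes the background of 7.24%. The Col3a1 summit, in an intron of this fibrillar collagen gene at chr1:45313897-45314264, had a signal of 445, with 231 in pool G and 206 in pool H. The one near Fn1, which encodes fibronectin, had 418, with 232 and 184. Of 12 endothelial markers, only Emcn, the gene of the endothelial sialomucin endomucin, had one, 8.33% (0.211 to 38.5), near the same background. The Emcn summit lay 77.6 kb from a start site of the gene, with a signal of 600 and pool values of 337 and 262. Each of these summits stood 118 kb or more from the next.

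**Figure D3:**
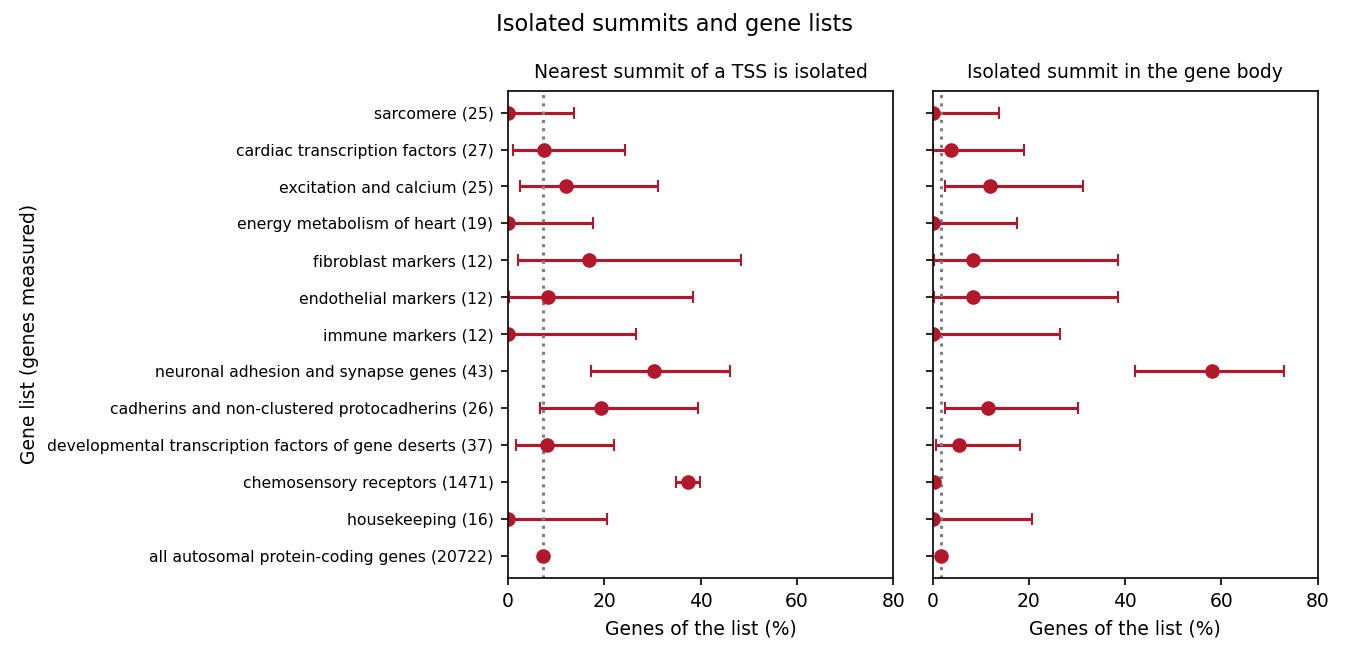
Share of genes (horizontal axis, %) of each list whose nearest summit was isolated (left) and which held an isolated summit in the gene body (right), with exact binomial 95% intervals; list sizes are in brackets and dotted lines mark the share over all autosomal protein-coding genes, 7.24% and 1.69%. Neuronal adhesion and synapse genes, at 58.1%, lie above the dotted line for gene bodies, and chemosensory receptors, at 37.3%, above that for the nearest summit.

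Neuronal adhesion and synapse genes, which are mostly very long, held isolated summits in the gene body in 25 of 43 cases, 58.1% (42.1 to 73.0). In 13, 30.2% (17.2 to 46.1), the nearest summit was isolated. Gene length went with this. Among genes over 500 kb, 24 of 37 on the list, 64.9% (47.5 to 79.8), and 89 of 181 others, 49.2% (41.7 to 56.7), held an isolated summit in the body, and these intervals overlapped. Some isolated summits stood at the start of such genes. Ctnna2, which encodes a neuronal catenin, had one 0.026 kb from a start site with a signal of 126, 65.1 in pool G and 61.5 in pool H. Grik2, a kainate receptor gene, had one at 0.052 kb with 144, 93.9 in pool G and 48.6 in pool H, and Lsamp one at 0.083 kb with 313, 185 in pool G and 125 in pool H. The Grik2 summit had no neighbour for 582 kb on the nearer side and 2961.6 kb on the other.

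Of 26 cadherin genes, 5 had an isolated nearest summit, 19.2% (6.55 to 39.4), among them Cdh12 at 0.490 kb with a signal of 98.3. Of the same 26, 3 held an isolated summit in the gene body, 11.5% (2.45 to 30.2), where the background was 1.69%. Gene length was not matched, with a median of 149 kb in this list. Of 37 developmental transcription factor genes, Pax3, Zfhx4 and Sox11 had an isolated nearest summit, 8.11% (1.70 to 21.9). For the nearest summit, the intervals of both lists included the background of 7.24%. The Sox11 promoter summit had a signal of 510, with 285 in pool G and 227 in pool H. Chemosensory receptor genes, which lie in large clusters and serve smell and pheromone detection, had an isolated nearest summit in 548 of 1471 cases, 37.3% (34.8 to 39.8). Neighbouring receptor genes shared their summit, so that these 548 genes rested on 45 summits, and the interval, which treats genes as separate, is too narrow. The share was 52.9% among 208 Vmn1r genes, 35.5% among 121 Vmn2r genes and 35.0% among 1127 Olfr genes, and none of 15 Taar genes had one (0 to 21.8%). In the gene body, 4 of the 1471 receptor genes held an isolated summit, 0.272% (0.0741 to 0.695), below the background of 1.69%. The median length of the receptor genes was 6.3 kb, against 17.6 kb over all autosomal protein-coding genes. Vmn1r20, a vomeronasal receptor gene, had a promoter summit of 485, with 268 in pool G and 215 in pool H.

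Cores at both ends of the wide gaps next to isolated summits pointed towards each other less often than at other wide gaps. An isolated summit has a wide gap on either side, and its core cannot point into both. Part of this difference therefore follows from the choice of members. The intervals can also count the same isolated summit in both of its gaps. Of 1162 gaps over 100 kb that touched an isolated summit and had a core at each end, 328 were convergent, 28.2% (25.7 to 30.9), where the background over all gaps of any length was 22.4%. Of 1087 gaps over 100 kb between summits that each had another summit within 100 kb on their far side, 36.2% (33.4 to 39.2) were convergent. Divergent cores, which point apart, made up 17.6% (15.4 to 19.9) and 15.5% (13.4 to 17.7), and cores on the same strand 54.2% and 48.3%. Between consecutive isolated summits 83 of 308 gaps, 26.9% (22.1 to 32.3), were convergent. Gaps under 10 kb had 19.2% convergent and 26.4% divergent cores.

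**Figure D4:**
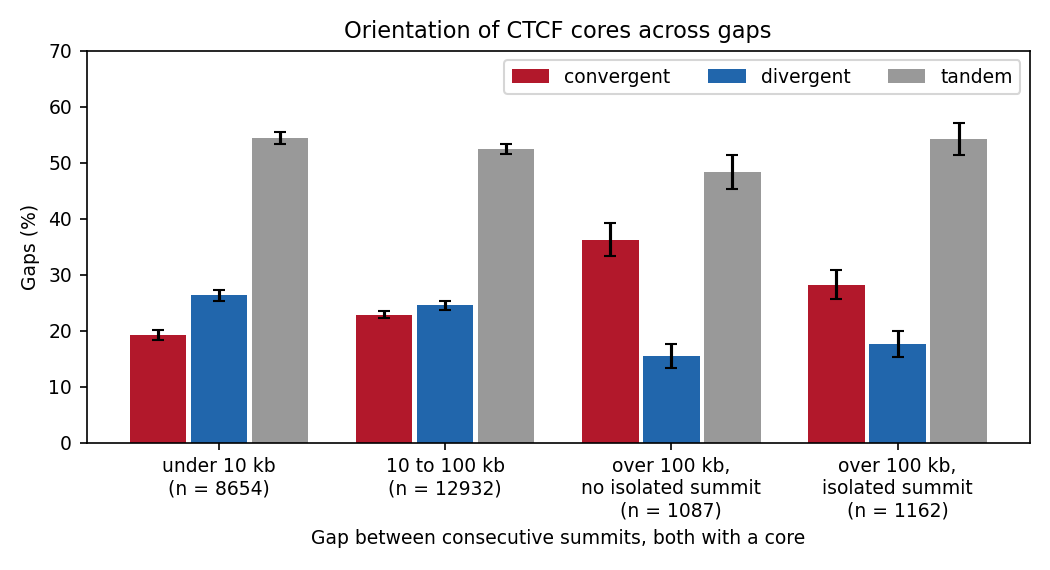
Share of gaps between consecutive summits (vertical axis, %) whose cores are convergent, divergent or on the same strand (tandem), by gap length and by whether an isolated summit is at an end; bars start at 0, error bars are exact binomial 95% intervals and n is the number of gaps. Convergent cores made up 28.2% of the wide gaps with an isolated summit, 36.2% of those without and 19.2% of gaps under 10 kb.

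The convergent share was lower next to isolated summits at either gap length, with separate intervals at 100 to 200 kb and overlapping ones over 200 kb. The limit from the choice of members applies at both lengths. The gaps next to isolated summits were longer, with a median of 204 kb against 146 kb, and the longer gaps had the higher convergent share in both groups, with overlapping intervals. At 100 to 200 kb the convergent share was 25.2% (21.7 to 29.0) of 567 gaps with an isolated summit and 35.2% (31.9 to 38.6) of 790 without. Over 200 kb it was 31.1% (27.4 to 35.0) of 595 and 39.1% (33.5 to 44.9) of 297. The pool lists gave 28.1% in G and 27.9% in H for gaps with an isolated summit. Seen from 523 isolated cores with a core at both neighbours, the neighbour ahead faced the isolated core in 57.9% (53.6 to 62.2), and the neighbour behind pointed towards it in 64.8% (60.6 to 68.9). These side shares were not computed for other summits, so they cannot be read as particular to isolated cores. No preference for a strand was seen along genes, as 47.2% (41.5 to 52.8) of 316 cores in a host gene lay on the strand of that gene.

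Isolated summits were unevenly spread over the autosomes and came in runs. They made up 1.71% (1.14 to 2.47) of 1634 summits on chromosome 19 and 5.17% (4.34 to 6.12) of 2493 on chromosome 3. Chromosome 14, with 4.77%, and chromosome 12, with 4.32%, followed chromosome 3, and their intervals overlapped its interval. All summits together numbered 26.6 per megabase on chromosome 19 and 15.6 on chromosome 3. Chromosome 11 was the densest, with 32.1, and had an isolated share of 1.84%. The rule depends on this density, so the shares are not independent of it. The 1577 members fell into 896 runs of isolated summits with no other summit between them, 553 of them single, and the longest run held 10. A summit next to a member already has 1 gap over 100 kb, so the rule itself favours runs. Gaps over 100 kb numbered 4932 and covered 55.0% of the autosomal bases.

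**Figure D5:**
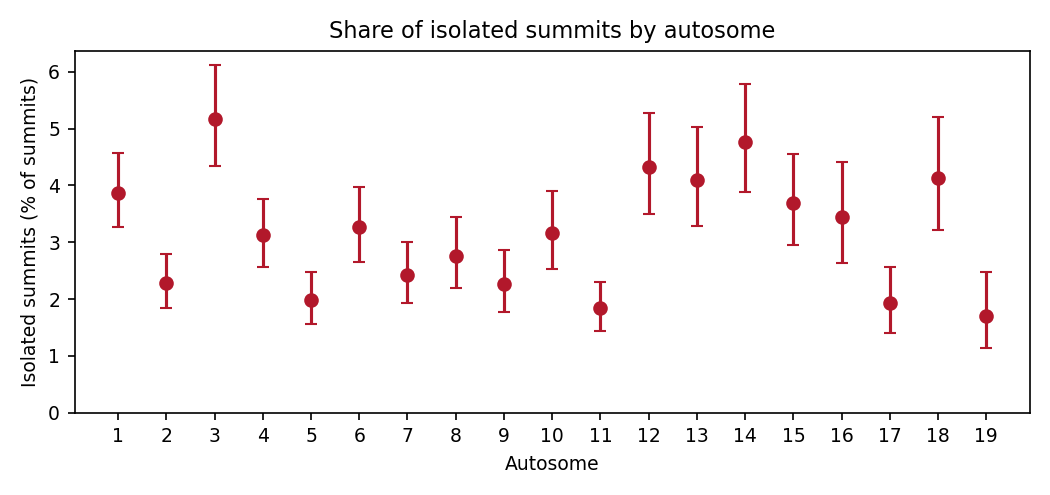
Isolated summits as a percentage of all summits (vertical axis) on each autosome (horizontal axis), with exact binomial 95% intervals. Shares ran from 1.71% on chromosome 19 to 5.17% on chromosome 3.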

How the data were processed

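The peak lists of 2 pools of heart tissue were analysed: the conservative and a second thresholded list of both pools, the thresholded list of each pool, and 3 ranked lists of candidates. They are on mm10, per the labels. The authors deposited the peak caller's signal as a score without a stated unit, and the IDR as a scaled score, with 540 for 0.05 and 830 for 0.01. The aligner and the caller were not given in the sources used here, and read depth is unknown.

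From these, distinct intervals were taken, keeping the strongest record's summit, and autosomal summits with no other within 100 kb were called isolated. A pool value is that of the summit within 100 bp. Cores were read from GRCm38.p6, locations from GENCODE M21, where a promoter (1 kb around any start site) came before UTRs, then coding and other exons, then introns, and the rest was intergenic. Distances to genes use start sites of protein-coding transcripts. A core counted as soft-masked with 6 or more of its 12 bases in lower case in the assembly. Members, lists and measures were chosen with earlier results of these data known. The members named are the 10 strongest, 3 weakest, 5 most remote, 5 strongest in promoters, 3 in coding exons (2 exist) and 5 in introns of genes over 500 kb, 3 on either side of the threshold, and up to 3 genes per list nearest to an isolated summit. Part of these are described. The members with a strong candidate nearby or absent from a pool list were picked after their values were seen. Intervals are exact Clopper-Pearson 95% intervals. No test was made, since the members were chosen from the same lists. Isolation, core search and orientation were tested on simulated data. The software was scipy 1.17.1, pandas 2.3.3 and numpy 2.4.6 under Python 3.11.15, with matplotlib 3.10.9 for plots.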

Additional observations from a re-analysis of the deposited data

How the results depend on the processing

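A window of 50 kb gave 4266 isolated summits with a signal ratio of 0.81, a promoter share of 11.1% and an intergenic share of 49.1%, and 200 kb gave 501 summits, 0.673, 5.99% and 68.9%. The second list of both pools moved the signal ratio to 0.825. With 1 pool's list alone the number of isolated summits was 1548 to 1617, the signal ratio 0.814 to 0.846, the core share 67.3 to 68.2%, the promoter share 8.91 to 9.11%, the intergenic share 56.1 to 56.5% and the convergent share 27.9 to 28.1%. The core share was 29.4% with the exact core and 91.8% with 2 mismatches. Promoters of 5 kb held 20.4% of isolated summits and left 51.4% intergenic, and protein-coding start sites alone gave a promoter share of 4.44%. The signal ratio was below 1 in all 8 alternatives run for it, and the convergent share, at 26.8 to 30.2%, stayed within its main interval in all 11. Counting every summit of an interval, an IDR of 0.01, and, chosen after seeing the data, counting candidates at least as strong as the weakest member as neighbours (1276 isolated summits) moved none of the 6 results beyond its interval, beyond 1.5 times for the count or beyond the spread of the pools' ratios. The pool values were set side by side per member, but no paired test was made, since no result comes from a test. Unknown depth limits the comparison of weak members between lists.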

Other observations

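The X chromosome was not part of the rule. It held 8.54 summits per megabase, against 15.6 to 32.1 on the autosomes. The same distance applied to the X gave 129 isolated summits of 1460, 8.84% (7.43 to 10.4), against shares of 1.71 to 5.17% on the autosomes. Their core share was 78.3% (70.2 to 85.1), 85 were intergenic and 8 lay in promoters. Their median signal was 210, against 305 at the other X summits. The most remote stood 1869.1 kb from its neighbour.

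Among the best cores with 1 mismatch, the mismatch fell at position 12, counted from 1 at the 5′ end of the core, in 186 of 602 isolated summits, 30.9% (27.2 to 34.8), against 25.2% (24.6 to 25.9) at the other summits. At position 3 it fell in 13.1% (10.5 to 16.1) against 17.7% (17.1 to 18.3). At position 1 the shares were 20.6% and 19.7%, with overlapping intervals.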
